A study of Mus musculus with 2 samples.

Results

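The Wnt pathway genes examined here were 53 genes chosen by symbol, namely 19 Wnt ligands, 10 frizzled receptors, 3 Lrp co-receptors, 10 secreted antagonists, 4 R-spondins and 7 intracellular and nuclear factors, out of 21887 protein-coding genes of the mouse gene table. They were described by their trimethylation of histone H3 at lysine 27 (H3K27me3) in chondrocytes, the cells of cartilage. The cells were released with collagenase from the ribs of wild-type newborn CD1 mice and were kept in culture overnight. Chromatin was cut with an enzyme, and 1 library of DNA precipitated with an H3K27me3 antibody (ChIP) was compared with 1 library of input DNA. The libraries were grouped by title, and the antibody tags of both libraries were swapped relative to their titles. The enrichments below are read as ChIP over input, which holds only if the titles are right. These 2 libraries were the ones analysed here, without a replicate, so counts, shares and peak values are given without an error or a test between samples. How many mice gave the cells is not given in the sources used here.

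Wnt proteins are secreted, lipid-modified ligands that bind frizzled receptors together with an Lrp co-receptor. In the canonical branch this stabilises β-catenin, which enters the nucleus and activates genes through Lef1 and the Tcf factors, while other branches steer cell polarity and calcium. Secreted antagonists hold the ligands away from the receptors or block the co-receptor, and R-spondins raise the number of receptors at the cell surface. In cartilage, Wnt signals take part in joint formation, in chondrocyte maturation and in the upkeep of the tissue. H3K27me3 is laid down by Polycomb repressive complex 2 and is found at silent developmental genes.

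The authors called 19359 peaks, regions where ChIP fragments stood above the input background. A gene was counted as marked where the deposited annotation joined a peak to it, which reached 5 kb beyond the gene. Of the cartilage genes checked, Col2a1, Acan, Sox9, Col9a1, Col11a1 and Matn1 had no peak within that reach. Among genes of other cells in a rib preparation, the muscle regulators Myod1 and Myf5, the leukocyte gene Ptprc and the fibroblast and bone collagen gene Col1a1 were marked, whereas the endothelial genes Pecam1 and Cdh5 were not. Peaks summed to 8.57 kb at Myod1 and 7.94 kb at Col1a1. Myf5 had only 1 peak of 0.37 kb outside the gene, and Ptprc only 1 of 0.947 kb, more than 5 kb from its start. Of all protein-coding genes, 20.7% were marked. The assay measured no expression, and the part of other cell types in any peak was not tested. In such a bulk sample, few cells with much of the mark and many cells with little of it cannot be told apart.

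Promoter sequences show what lay under, between and away from the peaks. RefSeq promoter windows on GRCm38.p6 were matched for 35 of the 53 genes. For 6 of them the 250 bases before the start are printed 5′ to 3′ on the gene's strand, with each CpG dinucleotide in capitals, because H3K27me3 is known to gather at CpG-rich promoters. Wnt1 (chr15:98789607-98789856, plus strand) and Dkk1 (chr19:30549497-30549746, minus strand) lay wholly under a peak. Wnt10b (chr15:98778151-98778400, minus strand) and Rspo4 (chr2:151842677-151842926, plus strand) lay in a gap between peaks. Frzb (chr2:80447397-80447646, minus strand) and Axin2 (chr11:108920099-108920348, plus strand) belonged to unmarked genes. The starts meant here are those of the promoter windows. At Wnt10b, Rspo4 and Axin2 the RefSeq gene record begins further upstream.
Wnt1: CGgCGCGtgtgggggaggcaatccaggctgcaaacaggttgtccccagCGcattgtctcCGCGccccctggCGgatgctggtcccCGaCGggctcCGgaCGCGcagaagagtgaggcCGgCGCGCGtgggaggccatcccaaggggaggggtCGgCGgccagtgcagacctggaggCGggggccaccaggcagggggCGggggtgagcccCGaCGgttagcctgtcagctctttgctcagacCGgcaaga
Dkk1: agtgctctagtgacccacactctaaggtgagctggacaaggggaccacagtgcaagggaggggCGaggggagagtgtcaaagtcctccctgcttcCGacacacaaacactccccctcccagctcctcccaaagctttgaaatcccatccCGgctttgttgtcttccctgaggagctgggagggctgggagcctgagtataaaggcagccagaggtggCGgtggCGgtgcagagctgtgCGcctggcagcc
Wnt10b: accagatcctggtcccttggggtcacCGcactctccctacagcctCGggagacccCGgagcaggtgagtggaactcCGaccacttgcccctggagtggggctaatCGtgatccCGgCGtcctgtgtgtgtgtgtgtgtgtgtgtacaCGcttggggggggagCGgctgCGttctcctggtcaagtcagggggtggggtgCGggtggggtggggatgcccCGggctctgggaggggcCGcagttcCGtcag
Rspo4: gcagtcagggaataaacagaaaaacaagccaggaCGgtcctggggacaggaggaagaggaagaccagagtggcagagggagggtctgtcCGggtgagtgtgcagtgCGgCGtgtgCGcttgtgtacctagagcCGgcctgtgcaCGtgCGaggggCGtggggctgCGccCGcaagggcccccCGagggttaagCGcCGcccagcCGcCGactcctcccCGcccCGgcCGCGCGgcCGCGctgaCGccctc
Frzb: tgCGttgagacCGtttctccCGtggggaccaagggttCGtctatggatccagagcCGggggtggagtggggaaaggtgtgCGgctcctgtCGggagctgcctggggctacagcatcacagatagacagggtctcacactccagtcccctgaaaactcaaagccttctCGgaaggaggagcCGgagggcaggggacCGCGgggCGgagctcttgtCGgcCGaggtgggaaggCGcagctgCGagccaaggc
Axin2: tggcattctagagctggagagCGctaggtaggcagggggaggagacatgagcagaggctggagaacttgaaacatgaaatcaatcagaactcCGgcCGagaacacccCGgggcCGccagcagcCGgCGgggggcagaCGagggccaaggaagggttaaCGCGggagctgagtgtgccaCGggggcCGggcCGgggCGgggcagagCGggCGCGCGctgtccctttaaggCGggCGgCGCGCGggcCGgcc

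These stretches differed in CpG content within each class. Under a peak, the Wnt1 stretch held 23 CpG and the Dkk1 stretch 6. In a gap, Wnt10b held 14 and Rspo4 held 24. The unmarked Frzb and Axin2 stretches held 16 and 24, so a CpG-rich start was found in all 3 classes.

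Of the 53 Wnt pathway genes, 30 (56.6%) were marked, beside 20.7% of all protein-coding genes. The mark was unevenly spread over the roles. It was present at 16 of 19 ligands, 6 of 10 secreted antagonists and 3 of 4 R-spondins, but at 3 of 10 frizzled receptors, none of the 3 co-receptors and 2 of 7 intracellular and nuclear factors. The shares of frizzled receptors (30%) and of intracellular and nuclear factors (28.6%) were near that of all protein-coding genes, and those of ligands (84.2%), antagonists (60%) and R-spondins (75%) were above it. A peak overlapped the body of 29 genes, beside 14.2% of all protein-coding genes, and the exception among the 30 was Tcf7. Among marked protein-coding genes in general the body was overlapped in 68.6%.

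**Figure D1:**
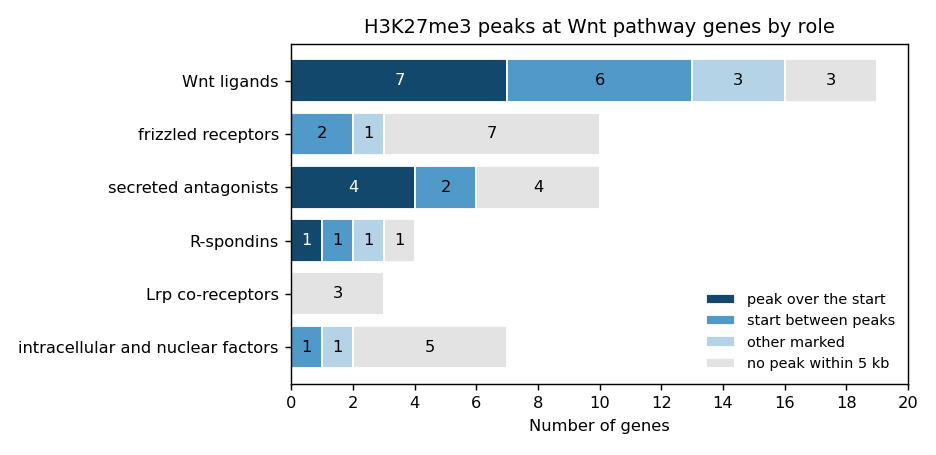
Number of Wnt pathway genes in each role (horizontal axis, genes), split into genes with a peak over the start, genes whose start lay between peaks, other marked genes and genes with no peak within 5 kb. The 19 ligands had 7 covered starts and 6 starts between peaks, whereas the 10 frizzled receptors had no covered start and 7 genes without a peak.

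The 30 marked genes carried 76 distinct peaks. Their median width was 2.17 kb, from 0.294 to 32.6 kb. The median was 1.27 kb over all peaks and 1.41 kb over peaks joined to a gene symbol. The fold enrichment is the ratio of ChIP pileup to input background after 1 is added to each. Its median was 3.26 at these genes, 3.16 over all peaks and 3.18 over peaks joined to a gene symbol. Pathway peaks were thus wider than the typical peak, while their enrichment differed little from it. Of the 76 peaks, 8 (10.5%) reached 10 kb, compared with 3.46% of all peaks, and 7 of these lay at Wnt ligands and 1 at Rspo1. The peaks of a marked pathway gene summed to a median of 10.1 kb, and those of a marked protein-coding gene to 3.75 kb. At least 3 peaks were joined to 12 of the 30 genes, and to 27.1% of marked protein-coding genes. The marked pathway genes had a median length of 24.7 kb and the unmarked ones of 33.0 kb.

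**Figure D2:**
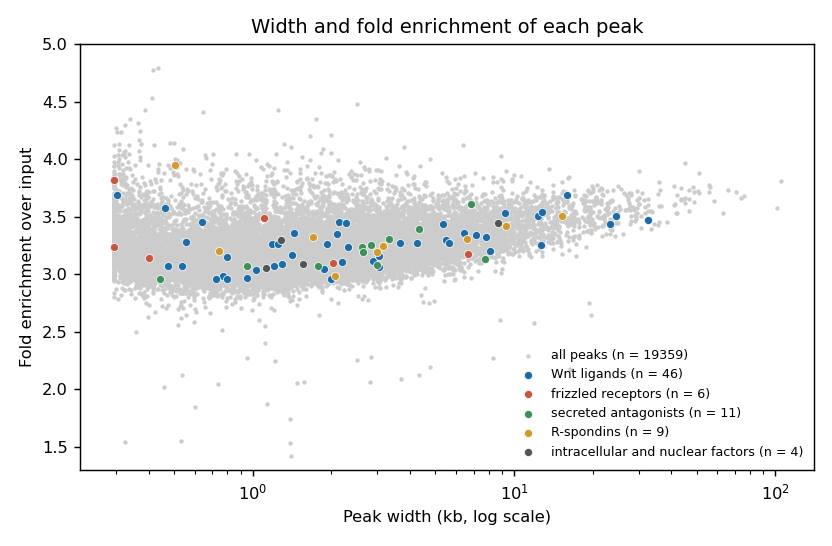
Width (horizontal axis, kb, log scale) and fold enrichment over input (vertical axis) of all 19359 peaks in grey and of the 76 peaks at Wnt pathway genes in colour by role. The coloured peaks reach 32.6 kb in width but stay between 2.96 and 3.95-fold in enrichment.

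The strength of the calls varied. Every peak has a mean q-value from the peak caller, which compares these libraries only. A peak whose mean q-value did not exceed 0.05 was joined to 28 of the 30 genes, beside 16.4% of all protein-coding genes, and Wnt4 and Sfrp2 had none. With 0.01 as the limit there were 14 genes, beside 5.9%. At a fold enrichment of at least 3.5 there were 12 genes, beside 5.35%. A peak of at least 1 kb was joined to 28 genes, beside 17%, and Wnt4 and Fzd5 had none. The 12 genes past the enrichment threshold were Wnt1, Wnt2, Wnt3a, Wnt6, Wnt7a, Wnt8b, Wnt9b, Wnt10b, Fzd10, Dkk1, Rspo1 and Rspo4. Of these, Wnt2, Wnt3a, Fzd10 and Rspo4 passed only through narrow peaks, of 0.302, 0.464, 0.294 and 0.503 kb, and their wider peaks fell below it.

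The position of the peaks relative to the gene start separated the marked genes into classes. A peak covered the start of 12 genes, beside 4.45% of all protein-coding genes and 21.5% of the marked ones. These were Wnt1, Wnt3, Wnt3a, Wnt6, Wnt7a, Wnt9b, Wnt10a, Sfrp2, Sfrp4, Dkk1, Dkk3 and Rspo1. At another 12 genes the start lay in a gap with a peak within 5 kb on each side, beside 17.5% of marked protein-coding genes. These were Wnt2b, Wnt7b, Wnt8b, Wnt9a, Wnt10b, Wnt16, Fzd5, Fzd10, Sfrp5, Dkk2, Rspo4 and Lef1. Peaks lay only on the downstream side within 5 kb at Wnt2, Wnt4, Fzd3 and Rspo2, beside 15.5%, and only on the upstream side at Tcf7, beside 24%. Wnt8a had no peak within 5 kb of its start, as did 21.5% of marked protein-coding genes. With the outer ends of the RefSeq gene records as starts, 11 starts were covered and 12 lay in a gap. Wnt6 then moved to peaks on the downstream side only, Dkk3 to a gap and Wnt16 to a covered start. With the starts of the RefSeq promoter windows, Wnt6 stayed covered and Wnt16 stayed in a gap, and no window was matched for Dkk3.

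The gaps at the start were 1177 to 6351 bp wide. The narrowest, at Wnt16, was equal to the smallest distance between any neighbouring peaks of the list. No shorter gap was listed, so a covered start cannot be told apart from a start with a shorter break. Whether the broad mode of the peak caller joined regions across shorter breaks was not tested. The gap was 1180 bp at Wnt8b, 1271 bp at Rspo4 and 2000 bp at Sfrp5. It was 3224 bp at Lef1, 4552 bp at Wnt2b and, at the widest, 6351 bp at Fzd5. Within a reach of 2 kb on each side, 6 genes kept the pattern, beside 11.6% of marked protein-coding genes.

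**Figure D3:**
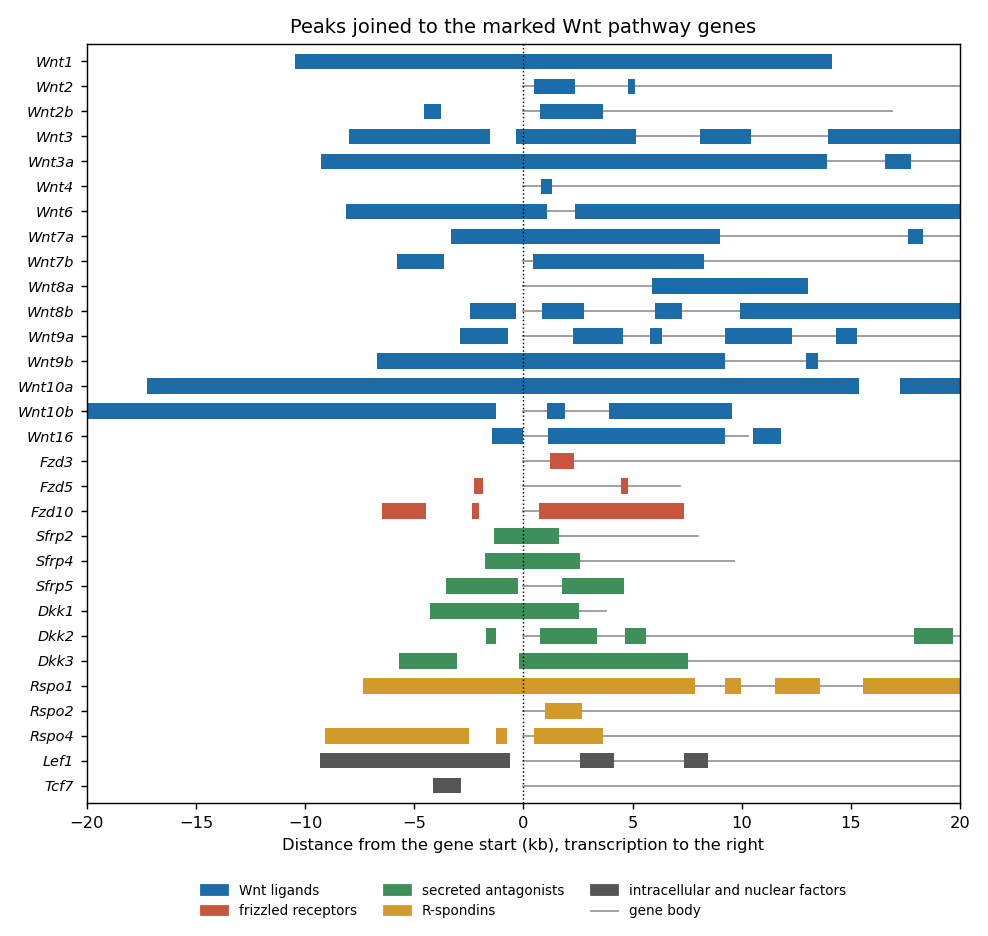
Peaks (bars) within 20 kb of the start of each of the 30 marked genes, as distance from the start in kb with transcription to the right. Colours give the role and thin lines the gene body. Bars run through the start at 12 genes and flank it on both sides at 12 others.

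Across the 30 marked genes, 12 (40%) had a peak at the start itself. The share was 53.3% at 1 kb upstream and 76.7% at 1.25 kb downstream, where 23 genes had a peak. Over all marked protein-coding genes it was 21.5% at the start, 29.7% at 1 kb upstream and 32.4% at 2 kb downstream. Both profiles therefore dipped at the start, and the pathway genes stood highest just inside the gene.

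**Figure D4:**
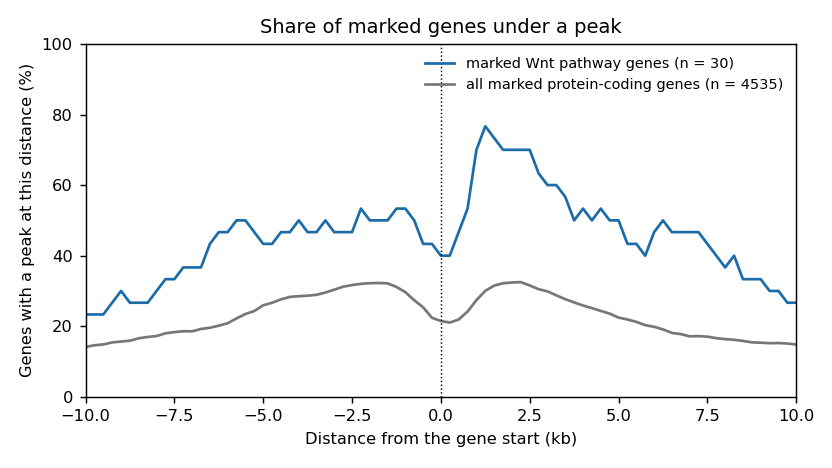
Share of marked genes (vertical axis, %) with a peak at each distance from the gene start (horizontal axis, kb), for the 30 marked Wnt pathway genes and for all 4535 marked protein-coding genes. Both curves dip at the start, to 40% and 21.5%, and the pathway curve reaches 76.7% at 1.25 kb downstream.

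Among the ligands, the widest coverage lay at genes that stand side by side in the genome. There were 4 pairs of ligand genes with at most 100 kb between them, and both genes of each pair were marked. Wnt6 and Wnt10a stand in the same direction on chromosome 1, 6.20 kb apart. Their shared peak (chr1:74774273-74806865) was 32.6 kb wide, the 47th widest of all 19359, with a fold enrichment of 3.47. It took in all of Wnt10a, the space between the genes and the end of Wnt6. The Wnt6 start lay under a separate peak of 9.25 kb with an enrichment of 3.53, and another peak of 4.25 kb with an enrichment of 3.27 followed downstream of Wnt10a. Peaks covered 93.5% of the 49.3 kb from the first to the last of them.

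Wnt1 and Wnt10b, whose ligands act in brain patterning and in fat and bone formation, stand back to back on chromosome 15, 11.7 kb apart. A peak of 24.6 kb (chr15:98779406-98803978) with an enrichment of 3.504 covered Wnt1 and ended 1256 bp before the Wnt10b start. Inside Wnt10b were peaks of 0.797 kb and, over its end, 5.61 kb, with enrichments of 3.15 and 3.27. The pair therefore shared a peak, but the start was covered at Wnt1 and in a gap of 2343 bp at Wnt10b, whose sequence is printed above. Peaks made up 87.6% of the 35.4 kb span.

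The remaining pairs, both back to back on chromosome 11, shared no peak. By the deposited positions, Wnt9b and Wnt3 stand 24.3 kb apart, whereas their RefSeq records overlap by 1098 bp, and by the former they carried 10 peaks over 81.2 kb, which covered 67.0% of it. The Wnt9b start lay under a peak of 16.0 kb (chr11:103740575-103756545) with an enrichment of 3.69, and a further peak of 0.555 kb with an enrichment of 3.28 lay inside the gene. Between the genes, joined to neither, was a peak of 0.91 kb with an enrichment of 3.04. Wnt3, needed for gastrulation and limb outgrowth, had 7 peaks. A peak of 5.49 kb with an enrichment of 3.30 covered its start, and one of 6.44 kb with 3.36 lay upstream. The others, inside the gene, had in order from the start widths of 2.32, 12.6, 3.68, 5.36 and 1.03 kb and enrichments of 3.24, 3.25, 3.27, 3.43 and 3.04. Wnt3a and Wnt9a stand 16.2 kb apart and carried 12 peaks over 89.1 kb, which covered 46.2% of it. A peak of 23.2 kb (chr11:59276856-59300041) covered the Wnt3a start with an enrichment of 3.43. Further along the gene and beyond its end lay peaks of 1.19, 0.464, 3.05 and 1.44 kb, with enrichments of 3.26, 3.57, 3.06 and 3.36. Wnt9a, a gene of joint formation, had only narrower peaks, and its start stood in a gap of 2964 bp. From upstream of the start to the gene's end, its 7 peaks were 2.19, 2.28, 0.537, 3.04, 0.953, 1.99 and 0.795 kb wide, with enrichments of 3.11, 3.44, 3.08, 3.16, 2.97, 2.96 and 2.96. In both back-to-back pairs on this chromosome the space between the genes in the deposited positions was covered in part, 59.3% at Wnt9b and Wnt3 and 71.0% at Wnt3a and Wnt9a.

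**Figure D5:**
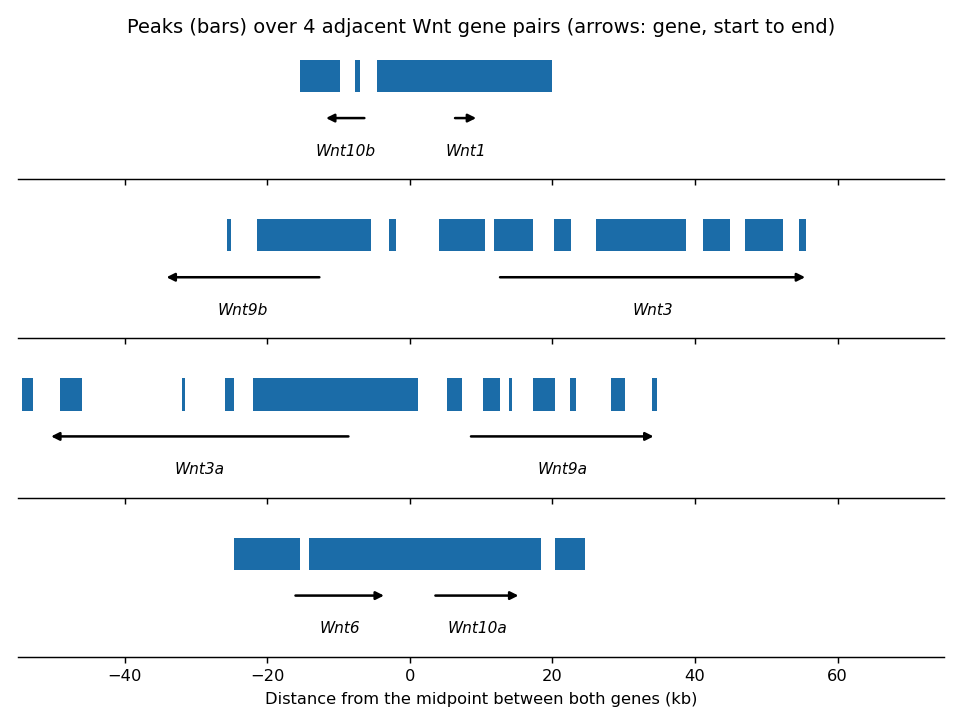
Peaks (bars) and genes (arrows, start to end) at the 4 adjacent Wnt gene pairs, as distance in kb from the midpoint between both genes. A single peak of 32.6 kb takes in all of Wnt10a and the end of Wnt6, and at the other 3 pairs separate peaks lie over the bodies of the 2 genes.

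The other marked ligands stand alone. Wnt7a, a dorsal signal of the limb, had a peak of 12.3 kb over its start with an enrichment of 3.504 and smaller ones of 0.724 and 1.25 kb with enrichments of 2.96 and 3.27. Wnt7b, an inducer of bone formation, had its widest peak, of 7.80 kb, beginning 456 bp inside the gene. Wnt8b had 5 peaks, the widest of 12.8 kb over the gene's end, and Wnt16, a ligand active in joints and bone, had 3, the widest of 8.09 kb inside the gene. Wnt2 and Wnt4 were marked by little: Wnt2 had peaks of 0.302 and 1.87 kb, the narrower with an enrichment of 3.69, and Wnt4 had a single peak of 0.474 kb with a mean q-value of 0.0658. The widest peak of Wnt2b was 2.89 kb. At Wnt8a a peak of 7.13 kb overlapped the gene's last bases (1.12% of the body), and with the RefSeq position of the gene it began 146 bp beyond the end.

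The 3 unmarked ligands were Wnt5a, Wnt5b and Wnt11, which are known chiefly for signalling outside the β-catenin branch. Wnt5a and Wnt5b are ligands of the growth plate. Measured from the RefSeq position of each gene, as for all unmarked genes, the nearest peak stood 49.7 kb from Wnt5a, 100.3 kb from Wnt5b and 154.7 kb from Wnt11. None of them had a peak within 20 kb, though at this depth a region below the lowest called pileup of 9.86 fragments would not be listed.

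Frizzled receptors carried little of the mark. Fzd10 had the most, with a peak of 6.65 kb from 713 bp inside the gene past its end and peaks of 0.294 and 2.03 kb upstream. Its 0.294 kb peak had an enrichment of 3.82, the 196th highest of all. Fzd3, which guides axons and tissue polarity, had 1 peak of 1.11 kb (chr14:65260158-65261266) with an enrichment of 3.49 and a mean q-value of 0.0110, which began 1197 bp inside the gene. Fzd5 had peaks of 0.294 and 0.4 kb. No peak within 5 kb was joined to Fzd1, Fzd2, Fzd4, Fzd6, Fzd7, Fzd8 or Fzd9, whose nearest peaks stood 51.6 kb (Fzd2) to 1453 kb (Fzd8) away. Among the Lrp co-receptors, Lrp5 and Lrp6 of the canonical branch had their nearest peaks at 67.1 and 837.4 kb, and Lrp4, a co-receptor that also anchors the bone antagonist sclerostin, at 7.23 kb. Lrp4 was therefore outside the reach of the annotation but nearer to a peak than the other unmarked genes among the 53.

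The secreted antagonists split within their families. Of the Sfrp family, decoys that resemble the frizzled ligand-binding domain, Sfrp2, Sfrp4 and Sfrp5 were marked, whereas Sfrp1 and Frzb were not. Sfrp4 had a peak of 4.35 kb over its start with an enrichment of 3.40. Sfrp2 had a weaker one of 2.98 kb, with an enrichment of 3.08 and a mean q-value of 0.0597. Sfrp5 had peaks of 3.33 kb upstream and 2.84 kb over its end. Of the Dkk family, Dkk1, Dkk2 and Dkk3 were marked and Dkk4 was not. Dkk1, which blocks Lrp5 and Lrp6, had the strongest peak of the antagonists (chr19:30547141-30553955), 6.82 kb wide with an enrichment of 3.61 and a mean q-value of 0.00527, and it covered 66.4% of the gene. Dkk3 had a peak of 7.75 kb over its start and another of 2.65 kb upstream, with enrichments of 3.13 and 3.19. Dkk2 had 4 peaks of at most 2.61 kb. Frzb, a cartilage-derived antagonist, and Wif1, a ligand-binding factor of cartilage surfaces, had no peak within 99.2 and 185.3 kb, and the nearest stood 252.1 kb from Sfrp1 and 98.5 kb from Dkk4.

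R-spondins bind Lgr receptors and keep frizzled proteins at the membrane. Rspo1 had 5 peaks that summed to 30.3 kb, of which the one over its start (chr4:124979102-124994294) was 15.2 kb wide with an enrichment of 3.51. The others were 0.743, 2.07, 9.31 and 2.99 kb wide, with enrichments of 3.20, 2.98, 3.42 and 3.19. Rspo4 had the highest enrichment of any pathway peak, 3.95 at a peak of 0.503 kb that ended 774 bp before the start (chr2:151841652-151842154, mean q-value 0.00174), together with wider peaks of 6.61 and 3.15 kb. Rspo2, needed for limb growth, had a single peak of 1.70 kb inside the gene. Rspo3 had none within 306.7 kb. The family thus ran from a gene covered over 78.5% of its length, Rspo1, to a gene without a peak.

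Of the 7 intracellular and nuclear factors, Lef1 and Tcf7 were marked. Lef1 had a peak of 8.70 kb (chr3:131101156-131109851) with an enrichment of 3.44, which ended 621 bp before the gene start, and peaks of 1.56 and 1.13 kb inside the gene with enrichments of 3.09 and 3.05. Tcf7 had a single peak of 1.29 kb, 2864 bp upstream. The related Tcf7l1 and Tcf7l2 were unmarked, with the nearest peak at 337.3 and 287.9 kb. Ctnnb1, which encodes β-catenin, stood 263.4 kb from the nearest peak. Axin1 and Axin2, scaffolds of the complex that degrades β-catenin, stood 12.6 and 81.7 kb from one, and Axin2 is also a common target gene of the pathway.

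The RefSeq windows, of 250 bases before and 50 after the start, allowed the base composition to be set beside the mark. For the 6 genes with several windows, the one that RefSeq lists first, the furthest upstream in each, was used. The ratio of observed to expected CpG had a median of 0.753 in 23 marked genes and 0.867 in 12 unmarked genes, compared with 0.585 over 17274 protein-coding genes. It was above 0.6 in all 12 unmarked genes, in 17 of 23 marked genes and in 48.9% of protein-coding genes. Where every window of a gene had to pass, Wnt5b, Tcf7l2 and Tcf7 fell out, which left 10 unmarked and 16 marked genes. Among the marked genes its median was 0.744 where the start was covered (9 genes) and 0.622 where it lay in a gap (11 genes), and over all protein-coding genes the order was the other way, with 0.536 for windows under a peak (843 genes) and 0.659 for those in a gap (634 genes). In the gap class of the pathway it ran from 0.345 at Wnt8b to 1.12 at Wnt9a. A peak lay over 11 of the 35 windows, compared with 4.88% of those of protein-coding genes. The core of the Lef and Tcf recognition motif, CTTTGA, searched on both strands, was found in the windows of Dkk1, Frzb, Fzd1 and Wnt11, which is 4 of 35, and in 14.9% of protein-coding windows. Dkk1 was the only marked gene among these 4. Later-listed windows of Wnt5b, which is unmarked, and Lef1, which is marked, also held it, so that 6 genes had it in any window.

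Further genes of the pathway were counted from a list of 66, of which 19 (28.8%) were marked, beside 20.7% of all protein-coding genes. The groups of this list are small, and their counts are given as a description. The receptors held 4 of 12, namely Lgr5 and Lgr6, which bind R-spondins, Rnf43, which removes frizzled proteins from the membrane, and Kremen2, a partner of Dkk1. Lgr6 and Rnf43 had 16 and 12 peaks that summed to 29.0 and 27.0 kb, all outside their starts. Antagonists and modulators held 4 of 13, and Sost, which encodes sclerostin, lay under a single peak of 17.6 kb. The others were Notum, Draxin and Dkkl1. Planar cell polarity genes held 4 of 10 (Celsr1, Celsr2, Celsr3 and Prickle2) and nuclear cofactors and targets 4 of 12 (Tle2, Tle3, Cdx1 and Sp5). Sp5, a target of the pathway, had a peak of 14.9 kb. The cytoplasmic genes held 2 of 17 (Apc2 and Nkd2), and the secretion genes 1 of 2 (Porcn).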

How the data were processed

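The 53 genes, their roles and the lists of further pathway and marker genes were chosen with earlier results of these data known. The submitters' processing notes name CASAVA 1.8.4, Bowtie2, MACS2 and mm10, and per the file headers the peaks came from MACS 2.1.0.20140616 in broad mode (q-value cutoff 0.05, fragment length 294 bp), with 17237574 ChIP and 17004082 input tags after filtering. This depth limits which regions could be called, and its effect was not tested. Despite the stated cutoff, mean q-values of the listed peaks ran up to 0.0991, and 60.8% of all peaks were at or below 0.05. Per peak, the authors deposited the pileup as a coverage signal, the fold enrichment as a ratio, and p-values and q-values as −log10, averaged over the peak. They also deposited the genes within 5 kb of each peak, by a tool not given in the sources used here.

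Symbols joined by semicolons were split, and 4929 of 4987 were matched to RefSeq (GRCm38.p6), as were all 53 genes. Widths, gaps and overlaps were computed with Python 3.11.15, pandas 2.3.3 and numpy 2.4.6 and tested on simulated data. All genes were named, with each peak's width and enrichment for covered starts, adjacent pairs and Wnt10a, Lef1 and Fzd3, the widest peak or range for others, and the distance to a peak for unmarked genes. Peaks inside a gene were not placed in exons or introns. Alternatives were thresholds on q-value, enrichment and width, overlap rules, RefSeq positions and joined peaks. Columns of other samples numbered 0.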

Additional observations from a re-analysis of the deposited data

How the results depend on the processing

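The count of 30 marked genes was 28 with mean q-values up to 0.05, 28 with peaks of at least 1 kb, 29 with overlap of the gene body and 30, the same genes, with RefSeq positions. Of 79 alternatives to 13 results, 52 stayed within 1.5 times the reported value and 27 did not. The results are counts and medians, which have no direction to reverse. With mean q-values up to 0.01, 14 genes were marked, with 10 ligands, 1 frizzled receptor, 1 antagonist and 0 intracellular and nuclear factors. The further list then gave 8 genes, covered starts 7, pairs with both genes marked 2 and median peak width 9.25 kb. At an enrichment of at least 3.5, these were 12 genes with 8 ligands, 1 frizzled receptor, 1 antagonist and 0 intracellular and nuclear factors, 9 of the further list, 6 covered starts, 1 pair and 9.25 kb. Fewer peaks remain under either threshold by construction. Where the start itself had to be covered, 12 genes were marked, with 7 ligands, 0 frizzled receptors, 1 R-spondin and 0 intracellular and nuclear factors, and 7 of the further list. Overlap of the gene body left 1 intracellular or nuclear factor, Lef1. Peaks joined across 5 kb had a median width of 8.21 kb. The count of starts in a gap, whose alternatives were chosen after seeing the data, fell from 12 to 6 within 2 kb.

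With 1 ChIP library, no value has a replicate check, and an unmarked gene is a gene without a called peak at this depth. No paired analysis was possible because only 1 ChIP and 1 input library were analysed here.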

Other observations

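Where peaks within 5 kb of each other were joined, the marked genes lay in 33 domains with a median width of 8.21 kb, compared with 2.06 kb for all 10770 domains of the list. The widest, of 60.6 kb with 9 peaks, ran across Wnt3a and Wnt9a, which shared no single peak. The domain at Wnt6 and Wnt10a was 55.1 kb wide, that at Wnt3 51.4 kb and that at Rspo1 48.6 kb. Wnt9b and Wnt3 stayed in separate domains of 23.7 and 51.4 kb. At the other end, Wnt4 and the peaks of Fzd5 stayed single stretches of 0.474, 0.4 and 0.294 kb.

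Some of these peaks also reached genes outside the pathway. The peak over Wnt1 was joined to Ddn, both peaks of Wnt7b to AU022754, 2 of the 5 peaks of Wnt8b, its widest of 12.8 kb included, to Sec31b, all 3 peaks of Fzd10 to 5930412G12Rik, the peak of Sfrp4 to Epdr1 and 1 peak each of Wnt3, Sfrp5 and Rspo1 to Nsf, Zfyve27 and Gnl2. To which gene of such a pair a peak belongs cannot be told apart from position alone. Lef1 and Dkk2, both marked, stand 860.9 kb apart on chromosome 3, and 4 peaks in the space between them covered 0.454% of it. Dkk4 and Sfrp1, both unmarked, stand 783.4 kb apart on chromosome 8 with 8 peaks between them.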
